A study of Mus musculus with 6 samples.

Results

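The 8 genes described here are regulators and products of the sympathoadrenal identity of neuroblastoma: *Mycn*, *Phox2a*, *Hand2*, *Gata2*, *Gata3*, *Isl1*, *Insm1* and *Th*. They were chosen by gene symbol from the 26656 gene IDs of the deposited tables, and all 8 are listed there. Expression was measured in N2a cells, a mouse neuroblastoma line, 72 h after transfection with a plasmid for an shRNA against *Npm1* (pLKO.1-shNpm1, NPM1 KD, 3 libraries) or for a non-target shRNA (pLKO.1-shCTR, CTR, 3 libraries). Both conditions carry the WT genotype label and were at day 3 in vitro, and puromycin selection is described for the knockdown from the day after transfection onwards. The knockdown rests on 1 shRNA construct in 1 cell line. The libraries were made from cDNA amplified by PCR and sequenced on a nanopore GridION, which gives long reads.

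In the developing sympathetic nervous system and the adrenal medulla, transcription factors of the PHOX2, HAND, GATA, ISL and INSM families maintain one another and switch on the genes of catecholamine synthesis. Neuroblastoma arises from this lineage, and tumor cells of the adrenergic state keep these factors expressed together as a core regulatory circuit, often with high *Mycn*. Tyrosine hydroxylase, the product of *Th*, is the rate-limiting enzyme of catecholamine synthesis and a classical output of the circuit.

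In these N2a cells, none of the 4 genes that could be tested on the deposited values (*Mycn*, *Isl1*, *Gata2* and *Hand2*) passed the threshold between conditions. By limma on recovered reads only *Isl1* passed, and for 1 of its 2 possible sets of reads (adjusted p 0.0187, against 0.238 for the other). That call was lost without any single library other than NPM1 KD replicate 1. The mean values of *Mycn*, *Isl1*, *Th* and *Gata2* were lower in NPM1 KD and those of *Phox2a*, *Insm1*, *Gata3* and *Hand2* higher, and the libraries of both conditions overlapped for *Gata2*, *Gata3*, *Insm1*, *Hand2* and, narrowly, *Mycn*. In recovered reads every NPM1 KD library was below every CTR library for *Isl1* and *Th* and above every CTR library for *Phox2a*, a separation found in either direction in 20.5% of all genes with recovered reads. *Mycn* had 117 reads over the 3 CTR libraries against 35 over the 3 NPM1 KD libraries, which had lower relative depths. Scaled to depth, the ratio of these sums, NPM1 KD to CTR, was 0.425. It missed the threshold by limma on reads (adjusted p 0.0922), and the exact permutation test gave p = 0.2. These *Mycn* reads are the only set at the tolerance used for the rlog values. At a wider tolerance a second set fits, with a ratio of 0.18, no overlap and an exact permutation p of 0.1.

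The sequence upstream of a gene is where the factors of the circuit could bind. Stretches of the RefSeq promoter table (build GRCm38.p6) are shown for *Mycn*, *Isl1* and *Th*, whose values were lower, and for *Hand2*, whose values were not, for contrast. They were picked after the values had been seen. Each is written 5′ to 3′ on the strand of the gene and ends at or before the annotated start. Capitals mark the E-box letters CANNTG, bound by bHLH factors such as HAND2 and MYC family proteins, the letters GATA (or TATC on the other strand), and TGACGTCA, the cAMP response element. The *Mycn* stretch is chr12:12941915-12942086, the *Isl1* stretch chr13:116309690-116309938 and the *Th* stretch chr7:142900015-142900245, all on the minus strand, and the *Hand2* stretch is chr8:57320733-57320982 on the plus strand.
Mycn: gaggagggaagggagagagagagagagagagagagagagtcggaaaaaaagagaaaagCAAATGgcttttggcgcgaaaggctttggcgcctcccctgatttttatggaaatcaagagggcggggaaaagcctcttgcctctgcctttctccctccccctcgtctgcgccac
Isl1: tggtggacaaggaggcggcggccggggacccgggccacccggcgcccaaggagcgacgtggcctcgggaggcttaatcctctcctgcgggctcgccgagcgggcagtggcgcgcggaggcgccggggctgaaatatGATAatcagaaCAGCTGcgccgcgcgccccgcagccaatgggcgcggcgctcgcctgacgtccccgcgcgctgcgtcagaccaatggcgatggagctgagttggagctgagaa
Th: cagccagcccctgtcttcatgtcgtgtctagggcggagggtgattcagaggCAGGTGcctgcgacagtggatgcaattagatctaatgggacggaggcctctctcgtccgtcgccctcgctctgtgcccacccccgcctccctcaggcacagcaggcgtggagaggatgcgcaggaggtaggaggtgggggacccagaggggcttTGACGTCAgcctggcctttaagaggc
Hand2: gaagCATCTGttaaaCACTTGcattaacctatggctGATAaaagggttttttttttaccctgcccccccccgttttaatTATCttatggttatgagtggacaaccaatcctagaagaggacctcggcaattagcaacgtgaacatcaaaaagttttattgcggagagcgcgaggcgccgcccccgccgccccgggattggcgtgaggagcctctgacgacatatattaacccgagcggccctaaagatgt
The cAMP response element letters in *Th* begin 45 bases before the RefSeq start. Across 32851 promoters of the table, 1.55% hold TGACGTCA within 250 bases before the start on either strand, while CANNTG is found in 66.2% and GATA in 53.6%. The E-box and GATA letters are therefore common in promoters, and a match is a run of letters and not a measured binding site. The table has entries for 7 of the 8 genes, and *Insm1* has no entry.

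The knockdown was read first. *Npm1*, which encodes the nucleolar histone chaperone nucleophosmin, had rlog values of 10, 10 and 10 in CTR, against 8, 8 and 8 in NPM1 KD. An rlog value is a log2 expression value, normalized for library size and shrunk where reads are few. The log2 fold change of *Npm1* was −2.0 (SE 0.33, n = 3 per condition), with an adjusted p of 3.23e-06 by limma with Benjamini-Hochberg adjustment over 5752 genes. Every rlog value of 1 or more in size was deposited as a whole number, so that a difference of 1 between libraries can be a rounding step. Variances within groups were therefore not allowed below 0.0833, the variance of rounding. In this test 28 of 5752 genes (0.487%) passed an adjusted p of 0.05, 4 higher and 24 lower in NPM1 KD. At an unadjusted p of 0.05, 813 genes (14.1%) passed. In 5.6% of the genes the rlog values of the conditions did not overlap.

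Because the rounded values carry no decimals, the reads behind the values were also recovered. The deposited mean normalized count of a gene is a sum of whole reads, each divided by the depth of its library, so its decimals allow few sets of reads, and the rlog values leave 1 set for most genes. The relative depths obtained in this way were 1.241, 1.302 and 1.114 for CTR and 0.784, 0.833 and 0.961 for NPM1 KD. The relative depth of every NPM1 KD library was thus below that of every CTR library. These depths are the scaling factors behind the normalized counts and not total reads. Of 8767 genes with a mean normalized count of 1 to 30, 8195 had 1 set of reads. Reads divided by relative depth are called depth-scaled reads below. Fold changes on reads are on the log2(depth-scaled reads + 0.5) scale, which understates the change of genes with few reads. In limma on these values 127 of 8195 genes (1.55%) passed an adjusted p of 0.05, 14 higher and 113 lower in NPM1 KD, and 1237 (15.1%) an unadjusted p of 0.05. The depth-scaled reads of the conditions did not overlap in 20.5% of these genes. The median log2 fold change of all genes was −0.11 on reads and 0.00 on rlog values. Each ratio below is that of the summed reads of the conditions, each sum divided by the summed depth of its libraries, and so differs slightly from the ratio of the printed means, which weight libraries equally. The intervals are 95% exact binomial intervals on the same sums. These counting intervals treat each read as independent and leave out the spread between libraries, so they are no test between the conditions. PCR-amplified reads without molecular identifiers are not independent molecules, so the intervals can be too narrow even for counting error.

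By the authors' mean normalized count over all 6 libraries, 4 of the 8 genes reached 10: *Hand2* (214.1), *Gata2* (26.7), *Isl1* (23.2) and *Mycn* (22.9). The other 4 were below it, with 7.48 for *Gata3*, 6.63 for *Insm1*, 2.43 for *Th* and 1.42 for *Phox2a*. The 4 genes above 10 are also those tested on rlog values. The counts are not divided by transcript length and are not compared between genes. All 8 genes were read in both conditions, with 0 reads in 1 CTR library for *Phox2a* and in 1 NPM1 KD library for *Th*.

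**Figure D1:**
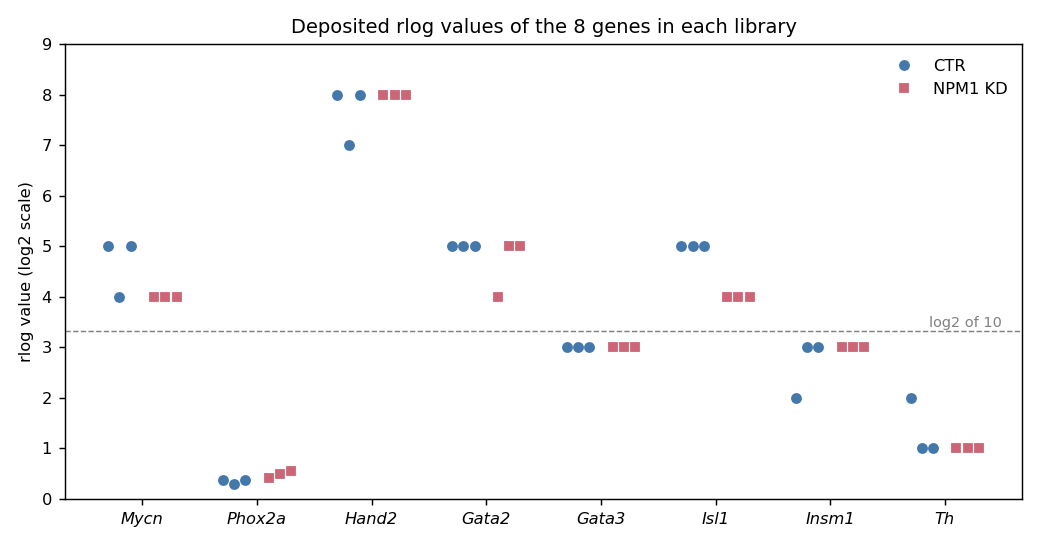
Deposited rlog values (y axis, log2 scale) of the 8 genes (x axis) in each of the 3 CTR (circles) and 3 NPM1 KD (squares) libraries, with a dashed line at log2 of 10. *Isl1* is at 5 in every CTR library and at 4 in every NPM1 KD library, *Hand2* lies at 7 or 8 throughout, and *Gata3* is at 3 in all 6 libraries.

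*Mycn* (ENSMUSG00000037169) encodes the MYC family transcription factor whose amplification marks high-risk human neuroblastoma. Its rlog values were 5, 4 and 5 in CTR, against 4, 4 and 4 in NPM1 KD. The recovered reads were 50, 23 and 44 in CTR, against 8, 10 and 17 in NPM1 KD, the only set of 29 that the rlog values allow. Divided by depth they came to 40.3, 17.7 and 39.5 in CTR, against 10.2, 12.01 and 17.7 in NPM1 KD. Thus CTR replicate 2 and NPM1 KD replicate 3 shared a level of 17.7, and the other CTR libraries stood above all NPM1 KD libraries.

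The mean of *Mycn* was 32.5 ± 12.8 depth-scaled reads in CTR and 13.3 ± 3.91 in NPM1 KD (SD, n = 3), and the ratio of summed reads, NPM1 KD to CTR, was 0.425 (interval 0.282 to 0.624). The exact two-sided permutation test gave p = 0.2, and with 3 against 3 libraries it cannot go below 0.1. On rlog values the log2 fold change was −0.67 (SE 0.33), with an adjusted p of 0.33 by limma (0.046 before adjustment). On reads it was −1.20 (SE 0.35), with an adjusted p of 0.0922, which also misses the threshold. If the rlog values are matched with a wider tolerance of 0.05 in place of 0.02, a second set of *Mycn* reads becomes possible. It has 81, 32 and 29 reads in CTR, against 9, 4 and 5 in NPM1 KD, and the conditions do not overlap. Its ratio of summed reads was 0.18 (interval 0.104 to 0.295), with an exact permutation p of 0.1. This second set was not fitted by limma.

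*Isl1* (ENSMUSG00000042258) encodes a LIM homeodomain factor of sympathetic and motor neurons. Its rlog values were 5, 5 and 5 in CTR, against 4, 4 and 4 in NPM1 KD. Of 36 sets of reads that give its mean, 2 are allowed by the rlog values and cannot be told apart. The first has 32, 44 and 31 reads in CTR and 9, 16 and 20 in NPM1 KD. The second has 59, 40 and 36 reads in CTR and 14, 7 and 2 in NPM1 KD. In both sets every NPM1 KD library was below every CTR library after scaling to depth.

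The size of the *Isl1* difference depends on the set. In the first the means were 29.1 ± 4.16 depth-scaled reads in CTR and 17.2 ± 4.99 in NPM1 KD, with a ratio of summed reads of 0.597 (interval 0.412 to 0.853). The second gave 36.9 ± 9.28 and 9.45 ± 7.94, with a ratio of summed reads of 0.242 (interval 0.148 to 0.378). Both reach p = 0.1 in the exact permutation test, the smallest it allows. On rlog values the log2 fold change of *Isl1* was −1.0 (SE 0.33) with an unadjusted p of 0.00248 and an adjusted p of 0.0791. On reads limma gave −0.78 (SE 0.31, adjusted p 0.238) for the first set and −2.29 (SE 0.48, adjusted p 0.0187) for the second, so that the result passes the threshold for one of the sets only. For the second set the adjusted p passed the threshold without NPM1 KD replicate 1 and missed it without any other single library, over a range of 0.0137 to 0.306.

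*Hand2* (ENSMUSG00000038193) encodes a bHLH factor needed for noradrenergic differentiation. Its rlog values were 8, 7 and 8 in CTR, against 8, 8 and 8 in NPM1 KD, so that CTR replicate 2 alone was lower. The log2 fold change was 0.33 (SE 0.34, adjusted p 0.713 by limma). Its mean normalized count is too high for whole reads to be recovered. In the GENCODE annotation of GRCm38, exons of the antisense gene *Hand2os1* overlap those of *Hand2*. Whether the counting used the strand is not given in the sources used here, so reads of the pair cannot be told apart.

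The GATA zinc finger factors act in sympathetic neuron development. *Gata2* (ENSMUSG00000015053) had rlog values of 5, 5 and 5 in CTR, against 4, 5 and 5 in NPM1 KD. Its reads are 43, 40 and 25 in CTR, against 11, 25 and 27 in NPM1 KD, or 39, 27 and 45 and 15, 22 and 21, the 2 sets left of 85. The conditions overlapped in both sets, with ratios of summed reads of 0.828 (interval 0.597 to 1.14) and 0.742 (interval 0.53 to 1.03), and exact permutation p-values of 0.5 and 0.3. On rlog values the log2 fold change was −0.33 (SE 0.33, adjusted p 0.713 by limma).

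*Gata3* (ENSMUSG00000015619) was at an rlog value of 3 in all 6 libraries. Behind this single value lay 3, 7 and 14 reads in CTR and 6, 8 and 7 in NPM1 KD, with means of 6.79 ± 5.22 and 8.18 ± 1.25 depth-scaled reads. The CTR libraries spanned all NPM1 KD libraries, and the ratio of summed reads was 1.24 (interval 0.658 to 2.33, exact permutation p = 0.8). Exons of *9230102O04Rik* on the same strand and of the antisense gene *Gm13256* overlap *Gata3* in the same annotation.

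*Insm1* (ENSMUSG00000068154) encodes a zinc finger factor of neuroendocrine differentiation. Its reads were 2, 9 and 8 in CTR, against 6, 5 and 10 in NPM1 KD, while the rlog values were 2, 3 and 3 and 3, 3 and 3. CTR replicate 1 was the lowest and NPM1 KD replicate 3 the highest library. The means were 5.23 ± 3.14 and 8.02 ± 2.23 depth-scaled reads, with a ratio of summed reads of 1.57 (interval 0.803 to 3.09, exact permutation p = 0.4).

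*Th* (ENSMUSG00000000214), the marker of catecholamine synthesis, was close to the detection limit. Its reads were 8, 3 and 4 in CTR, against 0, 1 and 1 in NPM1 KD, 15 against 2 in all, and are determined without the rlog values. All CTR libraries were above all NPM1 KD libraries, with means of 4.11 ± 2.12 and 0.75 ± 0.65 depth-scaled reads. From the summed reads the level in CTR was 5.28 times that in NPM1 KD, with a counting interval of 1.23 to 47.6. The exact permutation test gave p = 0.1, the smallest it allows, and limma on reads gave a log2 fold change of −1.97 (SE 0.82) and an adjusted p of 0.256. Its rlog values, on a scale that shrinks genes with few reads, were 2, 1 and 1 in CTR, against 1, 1 and 1 in NPM1 KD.

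*Phox2a* (ENSMUSG00000007946), a paired-like homeodomain factor that activates *Th* and *Dbh*, went the other way at a similarly low level. It had 1, 0 and 1 reads in CTR and 1, 2 and 3 in NPM1 KD. After scaling the conditions did not overlap, with means of 0.57 ± 0.49 and 2.27 ± 0.93. The ratio of summed reads, NPM1 KD to CTR, was 4.26, but its counting interval of 0.761 to 43.1 includes 1. Its rlog values, the only ones of the 8 genes that keep decimals, were 0.373, 0.301 and 0.382 in CTR, against 0.413, 0.490 and 0.543 in NPM1 KD. On reads the log2 fold change was 1.45 (SE 0.88, adjusted p 0.455 by limma). Exons of *Inppl1* overlap *Phox2a* on the opposite strand, so some of these few reads could belong to it.

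**Figure D2:**
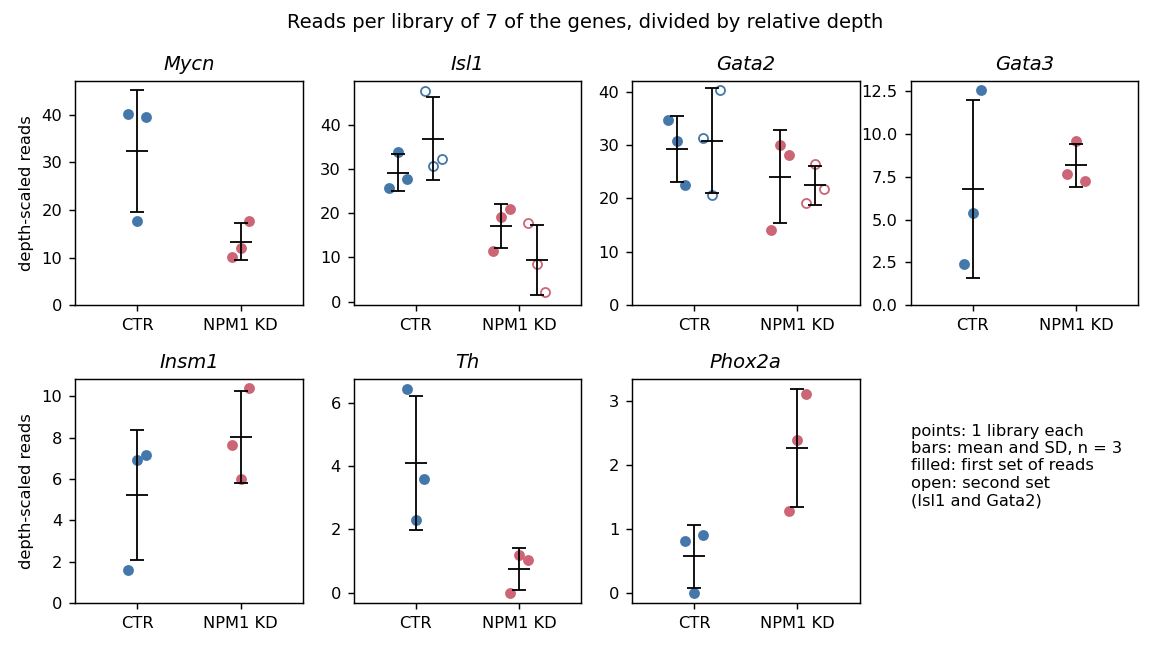
Depth-scaled reads (y axis, reads divided by relative depth) of 7 of the genes in CTR and NPM1 KD, 1 point per library, with bars for the mean and SD (n = 3). Open points are the second set of reads of *Isl1* and *Gata2*. The conditions do not overlap for *Isl1*, *Th* and *Phox2a*, and touch for *Mycn* at 17.7. The second *Mycn* set of the wider tolerance is not shown.

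Across the tested genes the counts were as follows. Of the 4 genes tested on rlog values 0 passed the adjusted threshold and 2, *Isl1* and *Mycn*, passed an unadjusted p of 0.05, beside 0.487% and 14.1% of all genes tested. Their median log2 fold change was −0.50, beside 0.00 for all genes. The conditions did not overlap for 1 of the 4, *Isl1*, beside 5.6% of all genes. On reads 7 genes were fitted, and 1, *Isl1* with its second set but not its first, passed, beside 1.55% of all genes. The share covers only genes with 1 set of reads, while *Isl1* and *Gata2* were each fitted with 2 sets. At an unadjusted p of 0.05 3 of the 7 passed on reads (*Mycn*, *Isl1* and *Th*), beside 15.1% of all genes. Relative to the median of all genes in that fit, the log2 fold changes were −1.09 for *Mycn*, −1.87 for *Th*, −0.67 or −2.18 for *Isl1*, −0.22 or −0.30 for *Gata2*, 0.61 for *Gata3*, 0.86 for *Insm1* and 1.56 for *Phox2a*. In bulk RNA, fewer cells with a transcript and less of it per cell cannot be told apart.

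**Figure D3:**
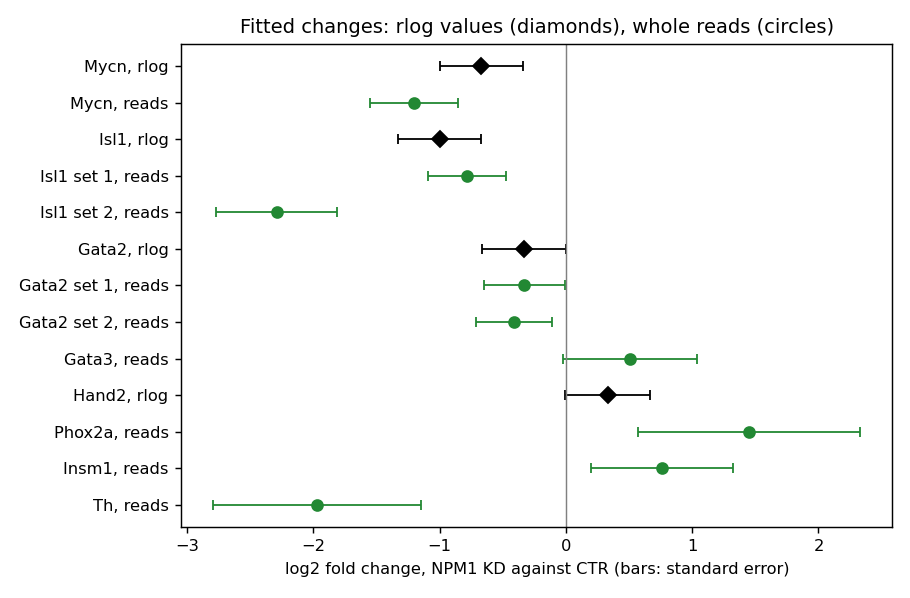
Log2 fold change of NPM1 KD against CTR (x axis) with its standard error for each of the 8 genes, from limma on rlog values (diamonds) and on whole reads (circles). *Mycn*, *Isl1*, *Th* and, less far, both sets of *Gata2* on reads lie left of 0 with their bars and *Phox2a* and *Insm1* right of it, and only the second set of *Isl1* passes an adjusted p of 0.05.

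The likeness of other genes to the 4 tested genes was read as Pearson's r over the 6 rlog values. The values are whole numbers, so many genes have the same pattern: 74 of 5751 genes reached r = 1 with *Mycn*, 175 with *Isl1*, 201 with *Gata2* and 90 with *Hand2*. With so many ties no gene can be singled out as most like any of them.

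The partners and relatives of these factors came next, as a list of 35 genes. Of these 8 were at 0 in every library, among them *Hand1*, the relative of *Hand2*, beside 11880 of all 26656 gene IDs. On rlog values 17 were tested and 0 passed, while 3 passed an unadjusted p of 0.05 (*Gata4*, *Lmo4* and *Tfap2b*), beside 14.1% of all genes. Their median log2 fold change was 0.00, as for all genes. *Sox4*, a SoxC factor of neuronal progenitors, was at 7 in all 6 libraries. *Tcf4*, an E protein that pairs with bHLH factors, gave −0.33, and *Id3*, an inhibitor of bHLH factors, 0.67, neither past the threshold.

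On reads, 16 of these 35 genes were fitted, with a median of 0.14, and 1 passed, beside 1.55% of all genes. At an unadjusted p of 0.05 by limma 5 passed (*Gata4*, *Id4*, *Pbx3*, *Sox11* and *Tfap2b*), beside 15.1% of all genes. *Tfap2b*, which encodes an AP-2 factor of the adrenergic circuit, had 18, 22 and 22 reads in CTR and 4, 5 and 2 in NPM1 KD. Its depth-scaled means were 17.1 and 4.40 and its conditions did not overlap, and the log2 fold change on reads was −1.94 (SE 0.46, adjusted p 0.0368 by limma). On rlog values, at 4 in every CTR library and 3 in every NPM1 KD library, it was −1.0 with an adjusted p of 0.166. The call on reads was lost without any 1 of the 3 CTR libraries or without NPM1 KD replicate 3 (adjusted p 0.0385 to 0.252 over the 6 fits). *Gata4*, a relative of *Gata2* and *Gata3*, had 15, 18 and 16 reads in CTR and 18, 25 and 32 in NPM1 KD. Its log2 fold change on reads was 1.06 (SE 0.31, adjusted p 0.0905).

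The MYC and MAX network, which holds the dimerization partners and antagonists of *Mycn*, was given by 19 genes. On rlog values 11 were tested and 0 passed, and on reads 13 were fitted and 0 passed, with median log2 fold changes of 0.00 and −0.17. Unadjusted, 1 gene (*Max*) and 4 genes (*Lin28a*, *Max*, *Mxd1* and *Mxi1*) passed 0.05, beside 14.1% of all genes on rlog values and 15.1% on reads. *Myc* itself had rlog values of 6, 6 and 5 in CTR, against 5, 6 and 6 in NPM1 KD, a log2 fold change of 0.00. *Odc1*, a classical MYC target of polyamine synthesis, was at 6 in all 6 libraries, and *Huwe1*, a ubiquitin ligase for MYC proteins, gave −0.33. *Max*, the obligate partner of MYC proteins, had 22, 25 and 14 reads in CTR and 24, 28 and 17 in NPM1 KD, with a log2 fold change of 0.68 on reads (adjusted p 0.327 by limma).

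The catecholamine list holds 21 genes of synthesis, storage and breakdown. The enzyme genes *Ddc* and *Dbh*, which follow *Th* in the pathway, were low in these cells. *Ddc* had 1, 5 and 0 reads in CTR and 3, 2 and 2 in NPM1 KD, and *Dbh* 4, 6 and 5 and 0, 4 and 4. *Maoa*, *Maob*, *Pnmt*, *Slc6a2* and *Slc6a3* were at 0 in every library. On rlog values 11 were tested and 0 passed, with 2 (*Qdpr* and *Slc18a2*) at an unadjusted p of 0.05, beside 14.1% of all genes, and the median log2 fold change was −0.33. The list's members with the highest mean counts, *Ywhaz*, *Ywhae*, *Pcbd1* and *Ppp2ca*, had rlog differences of 0.00, −0.33, −0.33 and 0.00.

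On reads 7 of the catecholamine genes were fitted, with a median of 0.12, and 1 passed, beside 1.55% of all genes. *Slc18a2*, which encodes the vesicular monoamine transporter VMAT2, had 52, 42 and 21 reads in CTR and 8, 6 and 6 in NPM1 KD. The depth-scaled means were 31.0 and 7.89 and the conditions did not overlap. Its log2 fold change on reads was −1.86 (SE 0.37, adjusted p 0.0134 by limma). On rlog values, 5, 5 and 4 against 4, 4 and 4, it was −0.67 with an adjusted p of 0.33. The call on reads was lost without CTR replicate 1, CTR replicate 2 or NPM1 KD replicate 3 (adjusted p 0.0208 to 0.253 over the 6 fits).

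Receptors and ligands of neuroblastoma made up a list of 22 genes, of which 21 are in the tables. In every library 7 were at 0, beside 11880 of all 26656 gene IDs. On rlog values 5 were tested, the median log2 fold change was −0.67, and 1 passed, beside 0.487% of all genes. *Ptn*, which encodes the growth factor pleiotrophin, a ligand of ALK, had values of 6, 7 and 6 in CTR, against 5, 5 and 5 in NPM1 KD. It was lower by limma with a log2 fold change of −1.33 (SE 0.34, adjusted p 0.026), a call lost without any single library (adjusted p 0.0617 to 0.248). *Ret*, the receptor for GDNF family ligands, was at 7 in every CTR library and at 6 in every NPM1 KD library (−1.0, adjusted p 0.0791). *Dlk1*, a Notch ligand of the lineage, and *Ngfr*, the low-affinity neurotrophin receptor, each gave −0.67 with an adjusted p of 0.33. On reads 9 were fitted, with a median of −0.56, and 0 passed, while 2 passed an unadjusted p of 0.05, among them *Gfra1*, a co-receptor of RET, beside 15.1% of all genes.

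**Figure D4:**
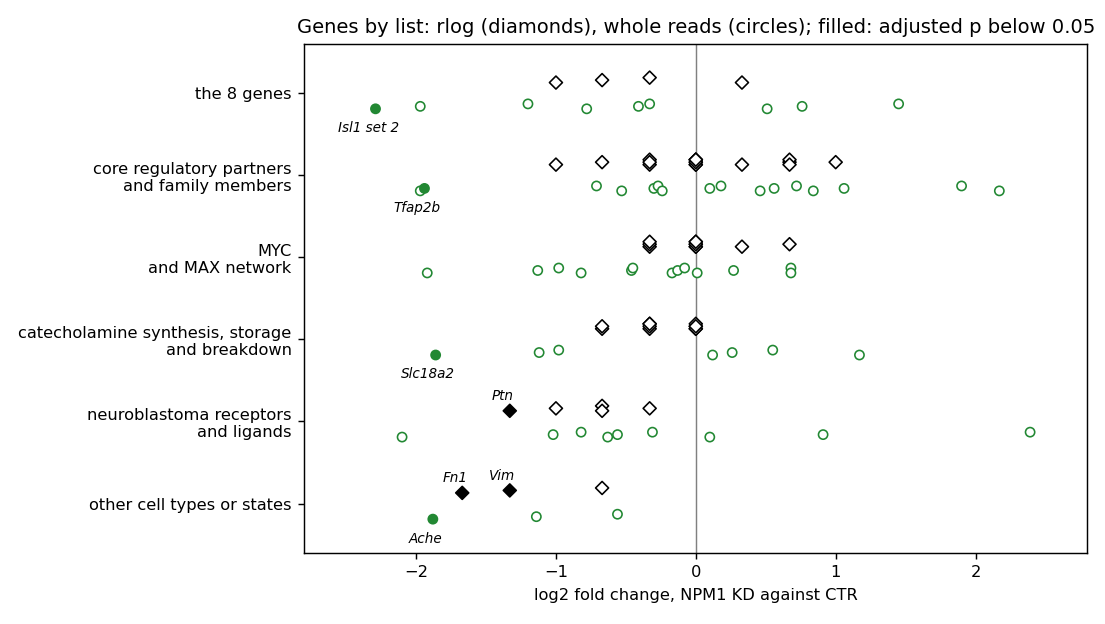
Log2 fold change of NPM1 KD against CTR (x axis) for the 8 genes and the genes of the 5 lists (y axis), from rlog values (diamonds) and whole reads (circles), 1 point per gene and fit, with both sets of *Isl1* and *Gata2*; filled points passed an adjusted p of 0.05. The filled points are *Tfap2b*, *Slc18a2*, *Ptn*, *Fn1*, *Vim*, *Ache* and the second set of *Isl1*, and all lie at negative values. Over all genes, 24 of 28 calls on rlog values and 113 of 127 on reads were also negative.

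Markers were used to check the label of the cells. Of 15 sympathoadrenal markers, which include the 8 genes, 6 had a mean normalized count of 10 or more, 7 lay between 1 and 10, and 2, among them *Hand1*, were at 0. Of 17 markers of other cell types or states in the tables, 10 were at 0, beside 11880 of all 26656 gene IDs. Among the 10 were *Prrx1*, *Prrx2* and *Twist1* of mesenchymal-type neuroblastoma, *Sox10* and *Foxd3* of Schwann cell precursors, and *Chat* of cholinergic neurons. On rlog values 3 of the 17 were tested and 2 passed, the mesenchymal genes *Vim* and *Fn1*, beside 0.487% of all genes. The median over the 3 was −1.33. On reads 3 were fitted and 1 passed (*Ache*), beside 1.55% of all genes, with a median of −1.14. *Vim*, an intermediate filament gene, had rlog values of 9, 9 and 9 in CTR, against 7, 8 and 8 in NPM1 KD (−1.33, SE 0.34, adjusted p 0.026 by limma). *Fn1*, the gene of fibronectin, had 6, 6 and 5 and 4, 4 and 4 (−1.67, SE 0.33, adjusted p 0.00038).

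The call of *Fn1* was lost without CTR replicate 1 or CTR replicate 2, and that of *Vim* without any single library. *Ache*, the acetylcholinesterase gene of cholinergic and other neurons, had 38, 25 and 12 reads in CTR and 4, 4 and 4 in NPM1 KD, with a log2 fold change on reads of −1.88 (SE 0.44, adjusted p 0.0365 by limma), lost without any single library. Its depth-scaled reads ranged from 10.8 to 30.6 in CTR and from 4.16 to 5.10 in NPM1 KD. *Vim*, *Fn1* and *Ache* and the relative library depths were thus lower in NPM1 KD, the condition in which *Isl1*, *Mycn*, *Th*, *Tfap2b* and *Slc18a2* had lower values. The part of these genes and of depth in those differences was not tested.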

How the data were processed

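RNA-seq was analysed in 3 CTR and 3 NPM1 KD libraries of N2a cells, grouped by the sample labels. The labels give 3 biological replicates in one place and 2 in another, so p-values refer to these libraries and not to a known number of biological replicates. On rlog values the variance limit and the fit across genes gave similar SEs. *Isl1*, with no spread within conditions, and *Mycn* both had an SE of 0.33. Those p-values therefore rest mostly on a variance shared between genes, not on the spread of each gene between libraries. The methods text of the study does not describe this experiment. Per the labels, minimap2, featureCounts and DESeq2 were named with build GRCm39, without versions, order or settings. Total reads per library are not given in the sources used here.

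The authors deposited rlog values, which are scores on a log2 scale for every gene in every library, and a table whose other unit is the mean normalized count of each gene over all libraries. The same table holds the authors' log2 fold change, its standard error, statistic, p-value and adjusted p-value, which were not used. All 6 columns of values were assigned, and 0 were left over.

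The 8 genes and the 5 gene lists were chosen with earlier results of these data known. The rule for other names was each listed gene past the threshold in either fit, and up to 4 per list with the highest mean count. *Ddc*, *Dbh*, the genes at 0, *Gata4* and the genes at an unadjusted p of 0.05 were named after their values were seen. Some genes that the rule names are not reported here.

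limma 3.58.1 (R 4.3.3) was fitted to the 5752 genes whose rlog values averaged log2 of 10 or more, with an intensity trend, a two-sided test, a variance limit of 0.0833 and Benjamini-Hochberg adjustment at 0.05. Whole reads were recovered with Python 3.11.15 from the decimals of the mean normalized counts: 731 genes tied the 6 depths to the libraries (mean correlation with rlog 0.992, next best assignment 0.651), the depths were refined on 5543 genes, and the rlog values removed sets of reads that missed a deposited value by over 0.02 beyond rounding. In 1969 genes used as a check, 100.0% of values rounded to the deposited rlog. These genes had means under 15, below those of *Mycn*, *Isl1* and *Gata2*, and reads fixed by the mean alone. On unrounded values the largest error of the rlog model was 0.048, above the tolerance of 0.02, and the median error 0.0001. A set was unique for 100.0% of genes with a mean of 1 to 10, 99.0% at 10 to 15 and 70.0% at 15 to 30. Genes with 1 set entered the fit on reads. The alternative sets of *Isl1* and *Gata2* were added to it all together, so both sets of a gene shared its trend and adjustment. The limma fits and the recovery of reads at the fitted depths were tested on simulated data. The simulated rlog values of the recovery test came from the same rlog model, so it does not cover errors of that model. Promoter stretches come from the RefSeq table of GRCm38.p6, and no gene coordinate in the build of the files is given. Deviations of same-numbered libraries from the means of their conditions had r of 0.012, −0.007 and 0.043 over 3546 genes with low mean counts. Counting error at so few reads can hide shared deviations, so these values cannot settle whether the replicate numbers pair the libraries.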

Additional observations from a re-analysis of the deposited data

How the results depend on the processing

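The alternatives on whole reads other than its pseudocounts, and the wider tolerance, were added after seeing the data. Against 28 genes past the threshold, limma called 301 without the variance limit, 350 without the trend, 0 with all genes that have a value other than 0 (951 at an unadjusted p of 0.05), and 5 to 10 when each library was left out. On whole reads it called 127, with a pseudocount of 1 161, with a mean count of at least 5 115, and with each library left out 0, 2 and 9 (without CTR replicates 1, 2 and 3) and 77, 62 and 63 (without NPM1 KD replicates 1, 2 and 3). With the replicate number as a block, 8 genes passed on rlog values and 246 on reads. In that blocked limma fit on reads *Mycn* passed (log2 fold change −1.20, adjusted p 0.0349). Whether the replicate numbers pair the libraries is not given in the sources used here. *Isl1* on rlog values passed without the variance limit (adjusted p 1.01e-11) and without the trend (0.0304). The sign turned, at values near 0, for *Gata2* (0.01, first set, without NPM1 KD replicate 1) and for *Gata3* (−0.02 on the log2 scale and −0.79 depth-scaled reads, without CTR replicate 1, the lower end of a range to 4.29). The cause was not tested. Without each library in turn, *Mycn* kept values of −1.0 to −0.50 on rlog and −1.59 to −1.0 on reads, *Isl1* −1.0 on rlog, *Th* −2.29 to −1.41 and *Phox2a* 0.97 to 1.74 on reads, none past the threshold. Few reads limit *Th*, with 17 in all, and *Phox2a*, with 8.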
